A study of Mus musculus with 12 samples.

Results

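Transcripts of the PPAR and RXR nuclear receptors and of the PGC1 coactivators were followed in mouse liver RNA-seq libraries. The 8 genes were taken by symbol from the count files, which list 54532 genes: the receptors Pparg, Ppara and Ppard, their dimer partners Rxra, Rxrb and Rxrg, and the coactivators Ppargc1a and Ppargc1b. All 8 were found, each once, and all 8 passed the filter on low counts in every comparison. PPARs are ligand-activated receptors for fatty acids and their derivatives that bind DNA as heterodimers with an RXR. PGC1 proteins do not bind DNA themselves. They dock on receptors such as PPARα and HNF4α and recruit the enzymes that open chromatin at genes of fat oxidation, mitochondria and gluconeogenesis. In liver, PPARα is the main receptor for the fasting response, while PPARγ is best known from adipocytes and is found in fatty livers.

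The livers came from male PPARγ flox/flox mice, so every animal in all 4 groups carried the floxed alleles. At 8 weeks of age the mice received an AAV8 virus by intraperitoneal injection, with either Cre (PPARγ-KO) or GFP (wild-type littermates) behind the hepatocyte-specific TBG promoter. All mice were then kept on a fast-food diet (FFD), rich in saturated fat, cholesterol and sucrose with fructose and glucose in the water, for 2 or 5 months. Each combination had 3 libraries, 12 in all, and no group ate a normal diet. By this promoter Cre is directed to hepatocytes, so the other cells of the liver are meant to keep an intact Pparg gene, which the counts do not check. Libraries are named here by group and by the number in their label.

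The libraries held between 16367775 and 27452284 counts, with 20072 to 21966 genes detected. The hepatocyte markers (Alb, Ttr, Cps1 and 5 others) summed to 55900 or more normalized CPM in every library, and skeletal muscle markers to under 1 CPM. The adipocyte markers Adipoq, Lep, Plin1 and Retn held 0 to 2 counts in each library, while Fabp4 held 178 to 687, Lipe 148 to 479 and Cfd 0 to 599. The targeted gene Pparg was not lower in the libraries labelled PPARγ-KO at either time. Counts per gene do not tell which exons the reads came from, so they do not check the deletion, and the groups are called by their labels. By Western blot of liver lysates, the paper reports that PPARγ protein was lost in PPARγ-KO livers at both times. Transcript counts do not measure protein. Levels are given as normalized CPM (read counts scaled to equal library size, with TMM factors over all 12 libraries). Levels of different genes were compared only after division by gene length (CPM per kb).

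Per length, Rxra and Ppara were the most abundant of the 8 transcripts after 2 months in wild-type livers. Rxra was at 82.5 ± 8.81 CPM per kb (SD, n = 3) and Ppara at 78.6 ± 4.45, and their libraries overlapped. Pparg followed at 13.3 CPM per kb, Rxrb at 7.86, Rxrg at 2.78 and Ppargc1b at 2.54, the last 2 overlapping. Ppargc1a, at 1.47 CPM per kb, and Ppard, at 1.29, were lowest. In wild-type livers after 5 months the order was Rxra (76.5 CPM per kb), Ppara (27.8), Pparg (13.0), Rxrb (10.5), Rxrg (3.7), Ppard (1.19), Ppargc1a (1.05) and Ppargc1b (0.727), with no overlap between neighbours. In the PPARγ-KO libraries after 2 months the order was Rxra (94.7), Ppara (74.2), Pparg (19.1), Rxrb (8.29), Rxrg (2.84), Ppargc1b (2.39), Ppargc1a (2.04) and Ppard (1.1), and the libraries of Rxrg, Ppargc1b and Ppargc1a overlapped along the order. After 5 months Ppargc1a (2.6 CPM per kb) stood above Ppard (1.46) and Ppargc1b (1.03) in the PPARγ-KO livers, below Rxra (82.9), Ppara (37.6), Pparg (28.7), Rxrb (10.3) and Rxrg (4.01), and again no neighbours overlapped.

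**Figure D1:**
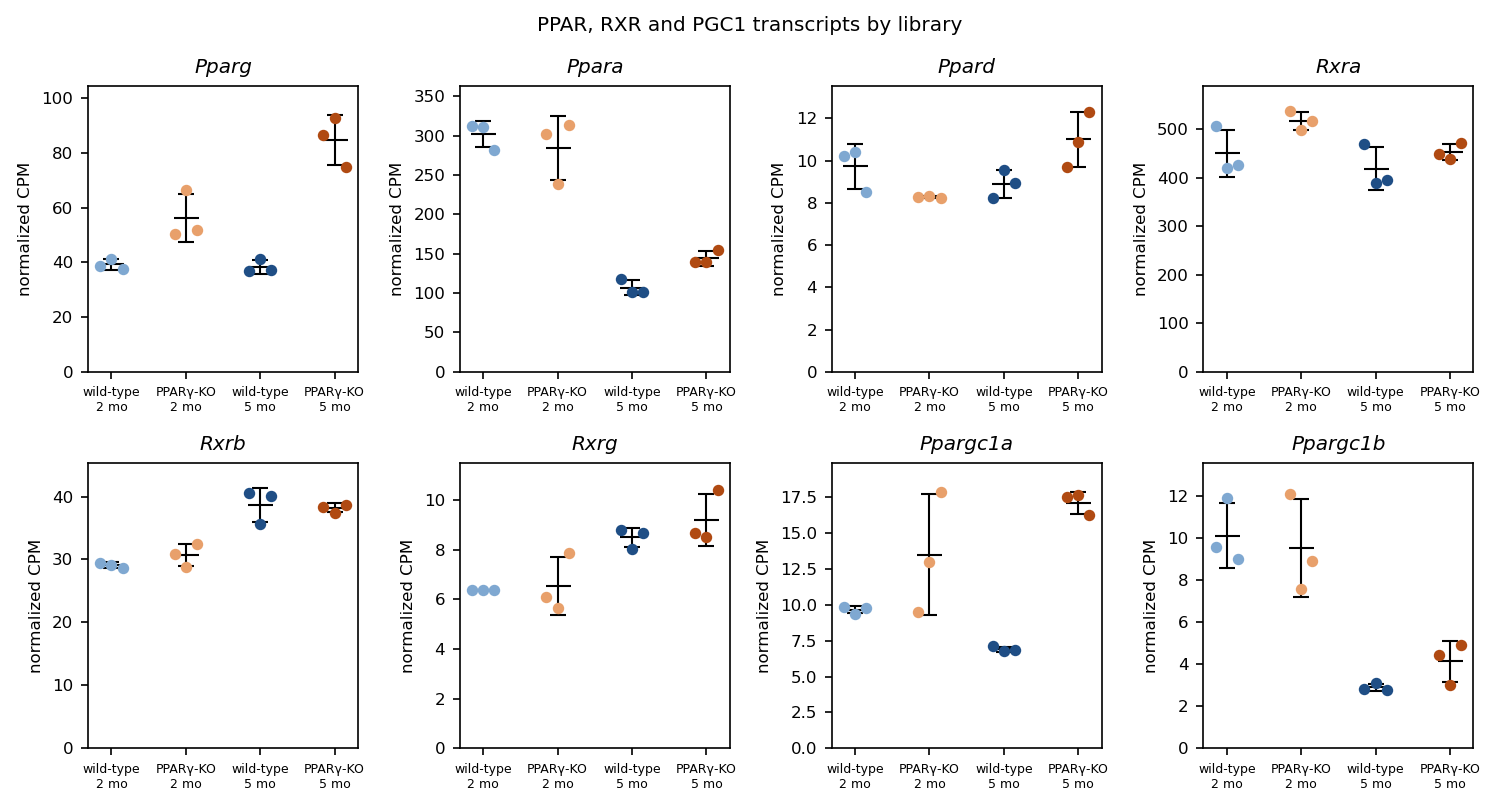
Normalized CPM of the 8 genes in each of the 12 libraries (points), with the mean and SD of each group of 3 (black bars); each panel has its own linear axis from 0. Pparg and Ppargc1a in the PPARγ-KO libraries at 5 months lie above all wild-type libraries, and Ppara and Ppargc1b are lower in both genotypes at 5 months than at 2 months.

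PPARγ-KO and wild-type livers after 2 months of FFD were compared first, Cre virus against GFP virus. Of the 8 genes, 1 was called at an adjusted p below 0.05 (Pparg, higher), against 3.56% of all 14573 genes tested (519 genes, or 817 with the replicate number as a block, with the same 1 of the 8 called). The median log2 fold change of the 8 was 0.06 against 0.00 over all genes. The 3 libraries of one genotype lay wholly above or below the others for Pparg (higher) and Ppard (lower), which was so for 24.1% of all genes. After 5 months 3 of the 8 were called, all higher (Pparg, Ppara and Ppargc1a), against 18.4% of 14138 genes. Libraries did not overlap for these 3 and for Ppard, all 4 higher in PPARγ-KO, against 34.8% of all genes, and the median log2 fold change of the 8 was 0.38. The change of the genotype effect from 2 to 5 months was itself tested in a fit of all 12 libraries. Of the 8 genes, 1 (Pparg) was called there, against 1.57% of 15127 genes, and the fitted difference was above 0 for Pparg, Ppara, Ppard, Rxrg, Ppargc1a and Ppargc1b and below 0 for Rxra and Rxrb.

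From 2 to 5 months in wild-type livers 2 of the 8 rose (Rxrb and Rxrg) and 3 fell (Ppara, Ppargc1a and Ppargc1b), against 46.4% of 14491 genes called. The same 5 had libraries that did not overlap, against 56.7% of all genes. In PPARγ-KO livers 4 rose (Pparg, Ppard, Rxrb and Rxrg) and 3 fell (Ppara, Rxra and Ppargc1b), against 44.9% of 14478 genes, and the same 7 did not overlap, against 55.6%. No label states whether 2- and 5-month livers went through library preparation in one round, so time on diet, the animals' age and preparation cannot be told apart in these 2 comparisons. In whole liver, fewer cells of a type and less RNA per cell cannot be told apart either.

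**Figure D2:**
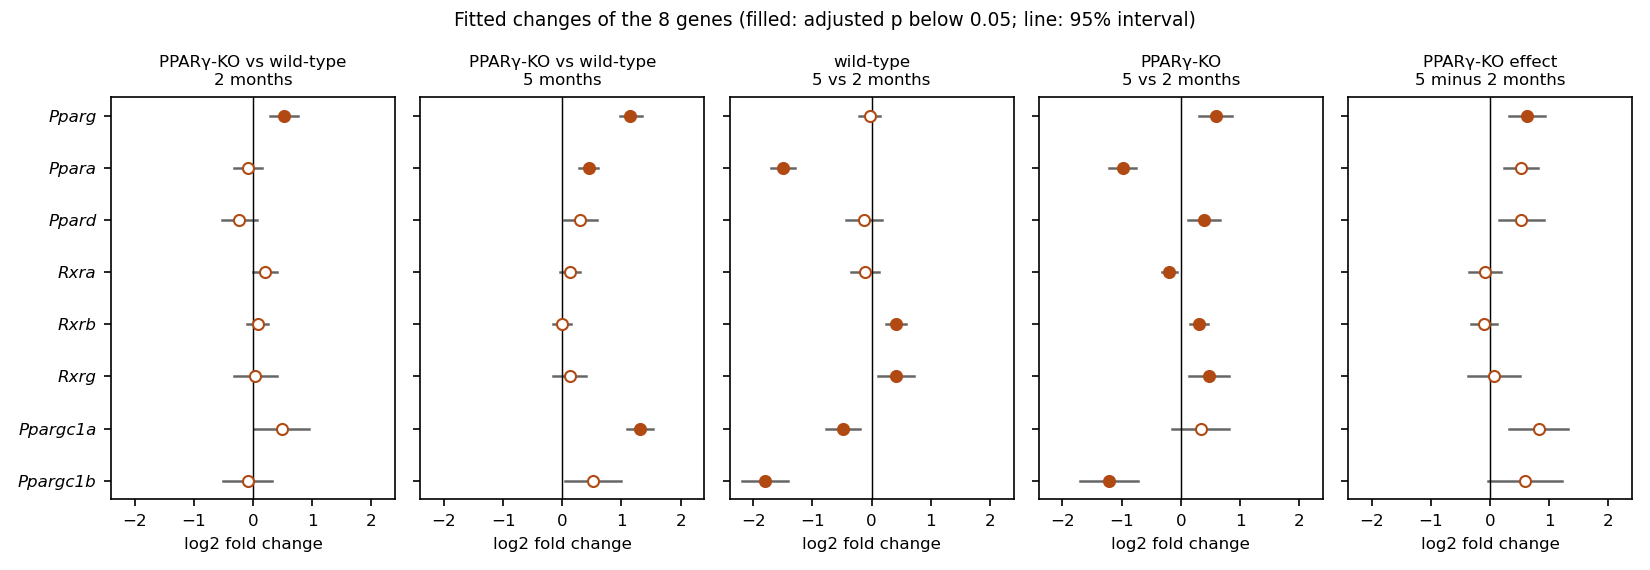
Fitted log2 fold changes of the 8 genes with their 95% intervals for PPARγ-KO against wild-type at 2 and 5 months for 5 against 2 months in each genotype, and for the genotype effect at 5 minus that at 2 months (right panel), filled where the adjusted p was below 0.05. At 5 months the points of Pparg, Ppara and Ppargc1a are filled and to the right of 0, and over time Ppara and Ppargc1b lie to the left of 0 in both genotypes.

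Pparg (ENSMUSG00000000440, chr6:115360951-115490399 on the plus strand of mm10), the receptor that drives lipid storage, was at 38.8, 41.4 and 37.6 CPM in the wild-type libraries at 2 months. It was at 50.4, 66.5 and 52.0 CPM in the PPARγ-KO libraries. Every PPARγ-KO library was above every wild-type library, with replicate 2 the highest. Pparg was 1.43-fold higher (log2 0.52, SE 0.11, edgeR adjusted p = 0.0309), a call that was lost, at adjusted p up to 0.117, when any 1 library other than wild-type replicate 1 was left out, and with scaling by library size alone (0.0729). At 5 months the wild-type libraries were at 36.9, 41.4 and 37.1 CPM and the PPARγ-KO libraries at 86.5, 92.9 and 75.0 CPM. The groups lay far apart, and the difference of 2.22-fold (log2 1.15, SE 0.08, edgeR adjusted p = 2.57e-06) was called in every alternative tried. Over time the change of Pparg did not pass in wild-type libraries (log2 -0.03, 95% interval -0.21 to 0.15, edgeR adjusted p = 0.775) and it rose 1.51-fold in PPARγ-KO libraries (edgeR adjusted p = 0.00443). The genotype effect was larger at 5 than at 2 months by 0.62 on the log2 scale (95% interval 0.32 to 0.93, edgeR adjusted p = 0.0432), a call lost, at adjusted p of 0.0651 to 0.122, on leaving out 9 of the 12 libraries in turn (all but wild-type replicate 1 and PPARγ-KO replicate 2 at 2 months and PPARγ-KO replicate 3 at 5 months), and with scaling by library size alone (0.0585). An antisense gene inside Pparg, Gm44079, held 0 to 7 counts in each library.

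The start sites of Pparg and Ppargc1a, the genes with the highest fold changes at 5 months, are shown by the 250 bases upstream of a RefSeq start (GRCm38.p6, the same assembly as mm10). For Pparg it is the most downstream of 3 RefSeq starts, shown because its window holds no annotated exon, at chr6:115421816-115422065 on the plus strand, and for Ppargc1a chr5:51567726-51567975 on the minus strand. Capitals mark a match to TGACG (the core of a cAMP response element) in either orientation:

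Pparg: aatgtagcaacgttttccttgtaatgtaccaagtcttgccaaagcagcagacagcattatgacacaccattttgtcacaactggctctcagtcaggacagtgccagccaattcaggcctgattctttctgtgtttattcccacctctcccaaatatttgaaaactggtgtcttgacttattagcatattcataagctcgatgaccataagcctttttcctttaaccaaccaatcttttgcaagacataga
Ppargc1a: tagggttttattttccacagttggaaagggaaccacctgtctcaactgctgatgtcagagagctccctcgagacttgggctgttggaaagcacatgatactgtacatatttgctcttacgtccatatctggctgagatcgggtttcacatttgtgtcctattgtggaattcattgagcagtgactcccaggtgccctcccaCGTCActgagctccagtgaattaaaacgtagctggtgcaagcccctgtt

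The match upstream of Ppargc1a reads CGTCA, the reverse complement of TGACG, with its first base at -49 from the start. Of 32851 such windows of all genes 17.8% held TGACG on either strand, 14.0% held AGGTCA (the half-site bound by PPAR and RXR) and 6.02% held the E-box CACGTG. The 2 windows shown held no AGGTCA and no CACGTG. Both other Pparg windows, which overlap annotated exons and are not shown, held AGGTCA, with its first base at -28 and at -9. RefSeq gave 12 windows for 7 of the 8 genes, of which 7 windows held a match: AGGTCA in 4 windows of 3 genes, TGACG in 3 windows of 3 genes and CACGTG in 0. Ppargc1b was not among the windows. A match is a description of the letters, not a measured binding site.

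Ppara (ENSMUSG00000022383, chr15:85734983-85802819, plus strand), the receptor of hepatic fatty acid oxidation, was at 312, 311 and 282 CPM in wild-type and 302, 238 and 314 CPM in PPARγ-KO libraries at 2 months. The groups overlapped, with PPARγ-KO replicate 2 lowest, and the log2 difference of -0.09 had a 95% interval of -0.32 to 0.15 (edgeR adjusted p = 0.723). At 5 months the wild-type libraries were at 118, 101 and 101 CPM and the PPARγ-KO libraries at 139, 140 and 155 CPM. Every PPARγ-KO library was higher, by 1.36-fold on average (log2 0.45, SE 0.08, edgeR adjusted p = 0.00125), and the call held in every alternative. Ppara fell from 2 to 5 months in both genotypes, to 0.354 of its level in wild-type (edgeR adjusted p = 2.28e-06) and 0.507 in PPARγ-KO livers (edgeR adjusted p = 8.39e-05). The difference between the genotype effects, 0.52 on the log2 scale (95% interval 0.23 to 0.81), did not pass (edgeR adjusted p = 0.0739). It passed without wild-type replicate 1 at 5 months (0.60, edgeR adjusted p = 0.0425), with DESeq2 (adjusted p = 0.0305), with scaling by library size alone (0.0499) and with no filter (0.000474).

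Ppard (ENSMUSG00000002250, chr17:28232700-28301474, plus strand), the broadly expressed PPARδ, was at 10.2, 10.4 and 8.52 CPM in wild-type and 8.28, 8.32 and 8.22 CPM in PPARγ-KO libraries at 2 months. All 3 PPARγ-KO libraries were just below the lowest wild-type library, and the difference did not pass (log2 -0.23, edgeR adjusted p = 0.387). At 5 months it was at 8.23, 9.56 and 8.92 CPM in wild-type and 9.67, 10.9 and 12.3 CPM in PPARγ-KO libraries, now just above (log2 0.30, 95% interval 0.03 to 0.58, edgeR adjusted p = 0.12). Ppard rose 1.32-fold over time in PPARγ-KO livers (edgeR adjusted p = 0.0211), a call lost without PPARγ-KO replicate 1 at 2 months (adjusted p = 0.0507) or replicate 2 (0.0506) or 3 (0.088) at 5 months. The difference between the genotype effects, 0.53, did not pass (edgeR adjusted p = 0.162).

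Within the PPAR family, by CPM per kb, Ppara made up 84.3% in wild-type and 78.3% in PPARγ-KO libraries at 2 months, and 66.1% and 55.5% at 5 months. The share of Pparg was 14.3% ± 0.497 in wild-type and 20.5% ± 5.02 in PPARγ-KO libraries at 2 months, and 31% ± 2.73 and 42.3% ± 4.1 at 5 months (SD, n = 3). In single libraries it ran from 13.7 to 14.6% and from 17.5 to 26.3% at 2 months, then from 28.2 to 33.6% and from 37.7 to 45.4% at 5 months, so that the 4 groups did not overlap. The ratio of Pparg to Ppara went from 0.169 to 0.471 in wild-type livers, where Ppara but not Pparg passed the test, and from 0.265 to 0.768 in PPARγ-KO livers, where both passed. Ppard made up 1.17 to 2.83% on average in each group. Shares depend on the gene lengths used: without division by length the share of Pparg was 11.2%, 16.4%, 25% and 35.3% in the same order.

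**Figure D3:**
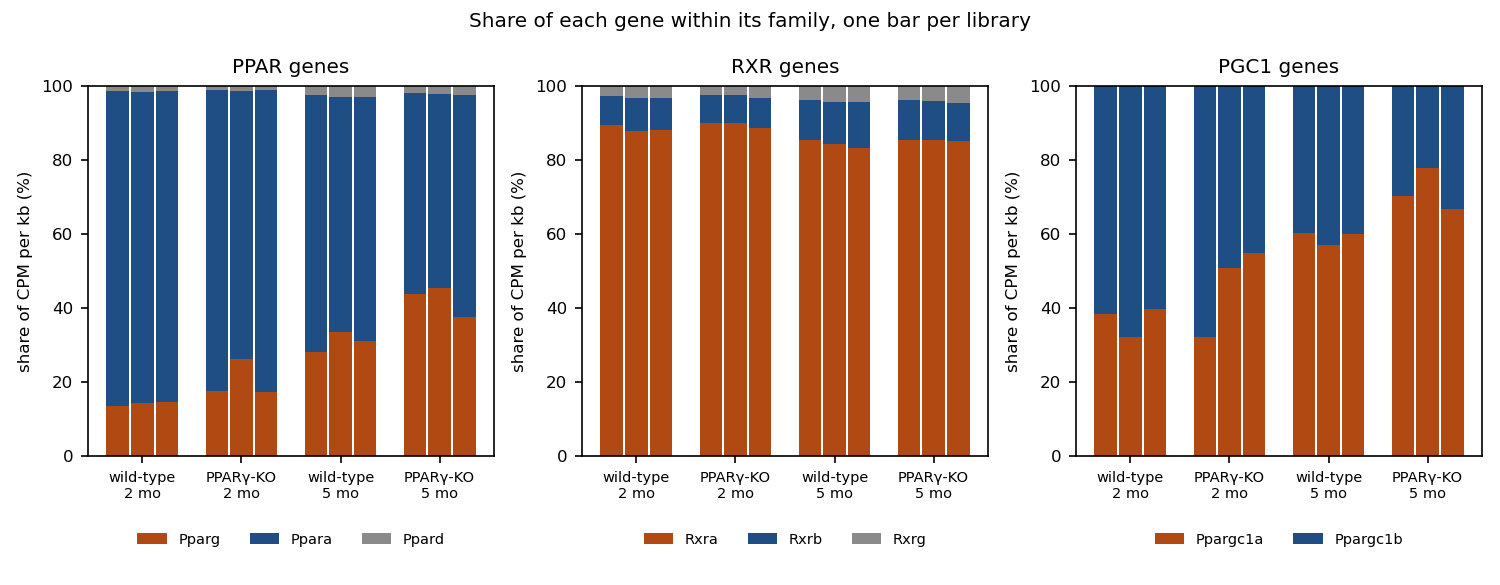
Share of each gene in the summed CPM per kb of the PPAR, RXR and PGC1 families, in percent, with 1 stacked bar for each of the 12 libraries. The share of Pparg grows from the wild-type libraries at 2 months (13.7 to 14.6%) to the PPARγ-KO libraries at 5 months (37.7 to 45.4%), while Rxra stays above 80% of the RXR sum.

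The RXR genes encode the dimer partners that every PPAR needs. Rxra (ENSMUSG00000015846, chr2:27676440-27762957, plus strand), the main liver form, was at 506, 420 and 426 CPM in wild-type and 537, 499 and 516 CPM in PPARγ-KO libraries at 2 months. At 5 months the wild-type libraries were at 469, 389 and 396 CPM and the PPARγ-KO libraries at 448, 439 and 472 CPM. At both times wild-type replicate 1 stood above the other wild-type libraries and overlapped the PPARγ-KO libraries. Neither difference passed (log2 0.20, 95% interval -0.01 to 0.41, edgeR adjusted p = 0.285, and 0.13, -0.04 to 0.30, adjusted p = 0.313). Each passed once wild-type replicate 1 of that time was left out (log2 0.29, edgeR adjusted p = 0.0192, and 0.22, adjusted p = 0.0169). Over time Rxra was lower in PPARγ-KO livers, at 0.874 of its 2-month level (edgeR adjusted p = 0.0213), a call lost without replicate 1 at 2 months (adjusted p = 0.0906), or replicate 1 (0.0732) or 2 (0.0771) at 5 months, and in the fit of all 12 libraries (0.0934).

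Rxrb (ENSMUSG00000039656, chr17:34031812-34038393, plus strand) was at 29.5, 29.1 and 28.6 CPM in wild-type and 30.8, 28.8 and 32.4 CPM in PPARγ-KO libraries at 2 months. After 5 months Rxrb was at 40.5, 35.6 and 40.1 CPM in wild-type and 38.4, 37.4 and 38.7 CPM in PPARγ-KO libraries. The genotypes overlapped at both times, with 95% intervals of -0.10 to 0.26 and -0.16 to 0.14 for the log2 difference, while every library at 5 months was above every library at 2 months. Rxrb rose 1.33-fold in wild-type (edgeR adjusted p = 0.00181) and 1.24-fold in PPARγ-KO livers (edgeR adjusted p = 0.00438), and both calls held in each library left out.

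Rxrg (ENSMUSG00000015843, chr1:167598384-167639623, plus strand), the least abundant RXR, was at 6.38, 6.38 and 6.39 CPM in wild-type and 6.11, 5.64 and 7.85 CPM in PPARγ-KO libraries at 2 months. At 5 months it was at 8.77, 8.04 and 8.66 CPM in wild-type and 8.68, 8.51 and 10.4 CPM in PPARγ-KO libraries. It was higher at 5 months in every library, 1.33-fold in wild-type (edgeR adjusted p = 0.0319) and 1.39-fold in PPARγ-KO livers (edgeR adjusted p = 0.0284). The wild-type call was lost without any 1 of 5 libraries (adjusted p of 0.062 to 0.0968; it held without replicate 1 at 2 months) and with DESeq2 (0.053), library size alone (0.08) or no filter (0.0628), and the PPARγ-KO call without replicate 1 (0.0863) or 2 (0.0884) at 2 months or replicate 3 (0.108) at 5 months. On the log2 scale the 95% interval of the genotype difference was -0.33 to 0.41 after 2 months, and -0.16 to 0.40 after 5 months. By CPM per kb Rxra made up 84.3 to 89.5% of the RXR sum on average in each group, Rxrb 7.84 to 11.6% and Rxrg 2.69 to 4.11%.

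Ppargc1a (ENSMUSG00000029167, chr5:51454250-51567726, minus strand) encodes PGC1α, the coactivator that cAMP and fasting induce in liver. It was at 9.87, 9.36 and 9.79 CPM in wild-type and 9.52, 13.0 and 17.9 CPM in PPARγ-KO libraries at 2 months. The wild-type libraries were close together, and the PPARγ-KO libraries ran from within their range to well above it. The difference did not pass (log2 0.48, 95% interval 0.02 to 0.95, edgeR adjusted p = 0.241, or 0.0126 with no filter). At 5 months the wild-type libraries were at 7.11, 6.76 and 6.89 CPM and the PPARγ-KO libraries at 17.5, 17.7 and 16.3 CPM. The lowest PPARγ-KO library was far above the highest wild-type library, a difference of 2.5-fold (log2 1.32, SE 0.10, 95% interval 1.09 to 1.54, edgeR adjusted p = 4.65e-06) that was called in every alternative. Of the 8 genes this was the highest fold change between genotypes at 5 months.

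In wild-type livers Ppargc1a fell to 0.715 of its 2-month level (edgeR adjusted p = 0.0114, or 0.0511 without wild-type replicate 2 at 5 months). In PPARγ-KO livers the change was 0.33 on the log2 scale and did not pass (95% interval -0.15 to 0.82, edgeR adjusted p = 0.23), whereas without PPARγ-KO replicate 3 at 2 months, the library at 17.9 CPM, it was 0.61 (edgeR adjusted p = 0.0053). Likewise the difference between the genotype effects was 0.82 (95% interval 0.32 to 1.32, edgeR adjusted p = 0.0963), and 1.09 without that library (edgeR adjusted p = 0.00972), and it also passed with DESeq2 (0.0492) and with no filter (0.00183). Transcripts annotated inside Ppargc1a (Gm42613, Gm42614, Gm42615 and Gm43605) held 0 to 7 counts each per library.

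Ppargc1b (ENSMUSG00000033871, chr18:61298136-61400431, minus strand) encodes PGC1β, a coactivator of mitochondrial and lipogenic genes. It was at 9.55, 11.9 and 8.98 CPM in wild-type and 12.1, 7.58 and 8.89 CPM in PPARγ-KO libraries at 2 months, with the groups mixed (log2 -0.09, edgeR adjusted p = 0.846). At 5 months it was at 2.84, 3.09 and 2.77 CPM in wild-type and 4.43, 3.02 and 4.92 CPM in PPARγ-KO libraries, from 48 to 94 counts a library. PPARγ-KO replicate 2 lay among the wild-type libraries and the others above them, so the 1.43-fold difference (log2 0.51, 95% interval 0.04 to 0.98) did not pass (edgeR adjusted p = 0.127), and did without that library (log2 0.70, edgeR adjusted p = 0.0411). From 2 to 5 months Ppargc1b fell to 0.286 of its 2-month level in wild-type (edgeR adjusted p = 2.3e-05) and to 0.431 in PPARγ-KO livers (edgeR adjusted p = 0.00122), calls kept in every alternative. Of the PGC1 sum per length, Ppargc1a made up 36.8% ± 4 in wild-type and 46% ± 12.1 in PPARγ-KO libraries at 2 months, and 59.1% ± 1.84 and 71.7% ± 5.75 at 5 months. Without division by length these shares were 49%, 58%, 70.5% and 80.6%.

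Genes that the receptors and coactivators act on or with were then counted, from lists named for their textbook roles. The lists were chosen with earlier results of these data known, so their counts are a description and not an independent test. In the PPARγ target list, of lipid droplet and triglyceride genes, 10 of 15 were lower in PPARγ-KO at 2 months and 0 higher (median log2 -1.07), and 9 of 15 were lower and 0 higher at 5 months (median -0.74), against the 3.56% and 18.4% of all genes given above. Several of these genes are textbook targets of PPARγ in adipocytes and fatty liver, and they were lower while the Pparg transcript count was higher. A link between these observations was not tested. Leaving out 1 library gave 7 to 11 called at 2 months and 9 each time at 5 months. Cidea, a droplet fusion protein, held 400, 262 and 350 counts in wild-type and 1, 2 and 0 in PPARγ-KO libraries at 2 months, and 587, 312 and 438 against 13, 4 and 2 counts at 5 months. Fitm2, which helps droplets bud from the endoplasmic reticulum, was at 102, 126 and 120 CPM in wild-type and 57.9, 50.3 and 61.0 CPM in PPARγ-KO libraries at 2 months (log2 -1.04, edgeR adjusted p = 0.00106). Every PPARγ-KO library was below every wild-type library for both genes.

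Fitm1, a relative of Fitm2, was lower at 2 months (log2 -1.15, edgeR adjusted p = 0.00102), as was Mogat1, a monoacylglycerol acyltransferase (-2.25, adjusted p = 0.00606). At 5 months Cidec, the droplet fusion protein also called FSP27, was at 148, 142 and 141 CPM in wild-type and 26.5, 22.0 and 17.2 CPM in PPARγ-KO libraries, without overlap (log2 -2.70, edgeR adjusted p = 2.91e-06). The droplet coat protein Plin2 (log2 -0.74), Mogat1 (-1.60) and Fitm2 (-0.65) were lower at 5 months too (edgeR adjusted p of 1.25e-05, 9.24e-05 and 0.000304). From 2 to 5 months 7 of 14 genes of the list rose and 1 fell in PPARγ-KO livers, Fabp4 (log2 1.41) among those that rose and Acsl1 (-0.76) the one that fell, against 3 and 4 of 15 in wild-type livers, where Lpl rose (1.83) and Acsl1 fell (-0.83). These are 57.1% of the list in PPARγ-KO and 46.7% in wild-type livers, against 44.9% and 46.4% of all genes. Summed macrophage markers were at 1430 to 1680 CPM in wild-type and 680 to 901 CPM in PPARγ-KO libraries at 5 months, with 11 of 12 markers called lower, and at 512 to 660 and 520 to 606 CPM at 2 months, where 3 were lower and 1 higher. Macrophages also transcribe Pparg. Summed stellate cell markers were at 592 to 747 against 448 to 462 CPM at 2 months (1 of 9 called lower) and 637 to 789 against 500 to 566 CPM at 5 months (4 called lower). Summed hepatocyte markers were at 55900 to 66500 against 72200 to 86000 CPM at 2 months (0 of 8 called by edgeR, 5 at an unadjusted p under 0.05) and 59300 to 65200 against 75700 to 88000 CPM at 5 months (3 called higher, 1 lower). Summed adipocyte markers, mostly Fabp4, Lipe and Cfd, were at 39.1 to 63.6 against 23.2 to 26.5 CPM at 2 months and 42.3 to 48.2 against 35.8 to 41.7 CPM at 5 months, with Cfd at 0 counts in all PPARγ-KO libraries. Of the endothelial, T and B cell and neutrophil markers, 3 of 7, 1 of 6 and 2 of 3 tested were lower in PPARγ-KO at 5 months, and 1 of 5 cholangiocyte markers was higher. All these marker counts stand against 3.56% of all genes called at 2 months and 18.4% at 5 months. The T and B cell and cholangiocyte counts were close to the 5-month share of all genes. The part of the cell types named here in the results was not tested.

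In the PPARα target list, mostly enzymes of fat oxidation, 7 of 26 were lower and 0 higher in PPARγ-KO at 2 months (26.9% called, against 3.56% of all genes, median log2 -0.24), and 7 were lower and 1 higher at 5 months (30.8%, against 18.4%, median -0.05). At 2 months the number called lower was 11 without wild-type replicate 1, 3 without wild-type replicate 2, 4 without wild-type replicate 3, and 2 without PPARγ-KO replicate 1 or replicate 2. It was 12 with DESeq2 and in the fit of all 12 libraries, and at 5 months leaving out 1 library gave 5 to 9. Vnn1, a pantetheinase, was at 132, 163 and 153 CPM in wild-type and 54.9, 47.5 and 61.6 CPM in PPARγ-KO libraries at 2 months (log2 -1.45, edgeR adjusted p = 0.00058). At 5 months it was at 178, 165 and 164 against 65.6, 52.4 and 66.1 CPM (log2 -1.45, edgeR adjusted p = 9.97e-07). The PPARγ-KO libraries were below the wild-type libraries at both times. The peroxisomal thiolase Acaa1b was also lower at both times (log2 -0.89, edgeR adjusted p = 0.00728, and -0.92 at 5 months), as was Acaa1a (-0.55, adjusted p = 0.0174, and -0.53). The 2-month call of Acaa1a was lost without wild-type replicate 2 or PPARγ-KO replicate 1 or 2. Both are near-identical copies whose reads may be split uncertainly. At 5 months Ppara itself was higher in PPARγ-KO libraries and Cyp4a14, a fatty acid hydroxylase, was lower (log2 -1.35, edgeR adjusted p = 9.97e-07). Cyp4a14 was at 258, 278 and 285 CPM in wild-type and 114, 113 and 93.2 CPM in PPARγ-KO libraries at 5 months. At 2 months it was at 384, 433 and 300 against 66.3, 98.5 and 166 CPM. Those libraries did not overlap either, but the difference did not pass (log2 -1.76, edgeR adjusted p = 0.0944).

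From 2 to 5 months, as Ppara fell in both genotypes, 8 of the PPARα targets fell and 2 rose in wild-type livers and 4 fell and 3 rose in PPARγ-KO livers. These are 38.5% and 26.9% of the list, below the 46.4% and 44.9% of all genes called. Cpt1a, which brings fatty acids into mitochondria, went from 888, 967 and 775 to 422, 425 and 422 CPM in wild-type libraries (log2 -1.05, edgeR adjusted p = 1.78e-05), and fell by 0.73 on the log2 scale in PPARγ-KO livers. Acot3, a peroxisomal acyl-CoA thioesterase, fell in both as well (log2 -3.84 and -1.60). It was at 29.7, 54.6 and 29.8 CPM in wild-type and 10.9, 9.06 and 11.5 CPM in PPARγ-KO libraries at 2 months, and at 2.13, 2.91 and 2.87 against 3.3, 3.84 and 3.28 CPM at 5 months. The libraries of the genotypes stood apart at both times in opposite order, with the effect called at 2 months (log2 -1.86, edgeR adjusted p = 0.0253) and not at 5 months (0.41, adjusted p = 0.216), and the difference between the genotype effects passed (log2 2.25, SE 0.36, edgeR adjusted p = 0.0112), the single gene of this list that did.

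**Figure D4:**
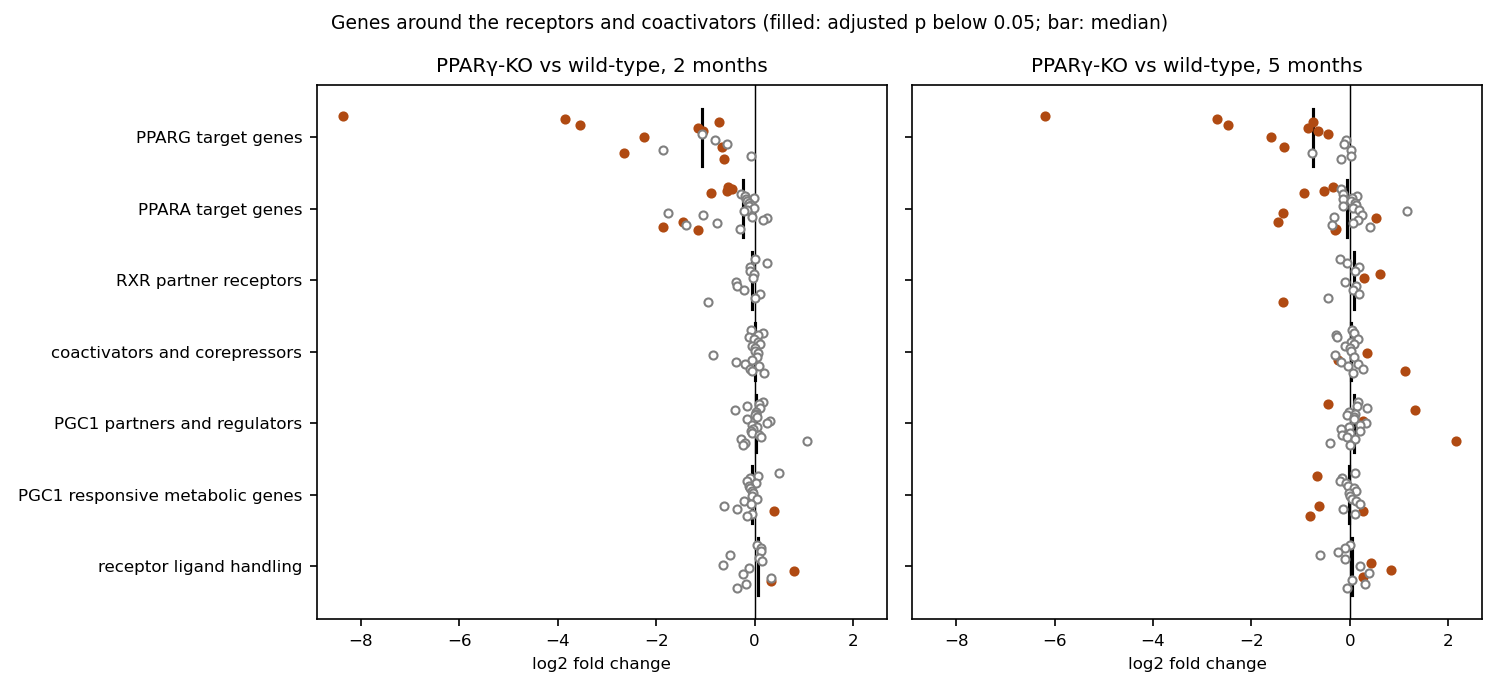
Fitted log2 fold changes, PPARγ-KO against wild-type, of the genes of 7 lists at 2 months (left) and 5 months (right); each point is a gene, filled where the adjusted p was below 0.05, and bars are list medians. The PPARγ targets lie to the left (medians -1.07 and -0.74), and the 4 lists of receptors, coregulators, PGC1 partners and PGC1 responsive genes have medians near 0; the leftmost point is Cidea, whose fitted value rests on 0 to 2 counts in the PPARγ-KO libraries at 2 months.

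Of the other receptors that pair with RXR and of the general coregulators of nuclear receptors, 0 of 12 and 0 of 20 were called by edgeR at 2 months (2 and 3 had an unadjusted p under 0.05, and DESeq2 called 0 and 0). At 5 months 2 RXR partners were higher and 1 lower, 25.0% called against 18.4% of all genes: Nr1i3, the xenobiotic receptor CAR (log2 0.62, edgeR adjusted p = 0.00302), Rara (0.29, adjusted p = 0.0409) and Nr4a2 (-1.36, adjusted p = 0.00664). The call of Rara was lost under most alternatives. Counts of Nr4a2 were low, at 38, 35 and 46 in wild-type and 23, 17 and 9 in PPARγ-KO libraries at 5 months. Of the coregulators Nr0b2, the bile acid induced repressor SHP, was at 42.4, 35.3 and 36.5 CPM in wild-type and 87.0, 83.8 and 74.8 CPM in PPARγ-KO libraries at 5 months. All PPARγ-KO libraries were high (log2 1.12, edgeR adjusted p = 2.57e-06, or 0.0521 in the fit of all 12 libraries). Cited2 was higher too (0.35, edgeR adjusted p = 0.0277), a call that depended on single libraries. Over time 12 of 20 coregulators fell and 1 rose in wild-type livers, and 10 fell and 3 rose in PPARγ-KO livers, 65.0% called in each against 46.4% and 44.9% of all genes. The acetyltransferase Ep300 went from 61.5, 55.1 and 61.7 to 32.5, 34.2 and 35.9 CPM in wild-type libraries (log2 -0.80, edgeR adjusted p = 2.42e-05), and its paralog Crebbp fell by 0.73 in wild-type and by 0.79 in PPARγ-KO livers on the log2 scale. Among the RXR partners Nr1i3 fell in both genotypes (log2 -1.59 and -0.97), with 4 of 12 falling and 1 rising in wild-type (41.7% called) and 2 falling in PPARγ-KO livers (16.7%), both below the share of all genes.

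Of 23 partners and regulators of PGC1, 0 were called by edgeR at 2 months (3 had an unadjusted p under 0.05, and DESeq2 called 1), and 3 were higher and 1 lower at 5 months, 17.4% called against 18.4% of all genes. Lpin1, which PGC1α induces and which coactivates PPARα with it, was at 98.6, 84.9 and 82.6 CPM in wild-type and 441, 365 and 377 CPM in PPARγ-KO libraries at 5 months. The groups were far apart (log2 2.16, edgeR adjusted p = 6.76e-08). At 2 months Lpin1 was at 85.8, 80.7 and 168 CPM in wild-type and 116, 185 and 402 CPM in PPARγ-KO libraries, highest in both genotypes in replicate 3 and overlapping (log2 1.07, edgeR adjusted p = 0.446). Within each number the PPARγ-KO library was the higher one, and with the replicate block the log2 difference was 0.97 (edgeR adjusted p = 0.0516). The PPARγ-KO library with the highest Ppargc1a at 2 months was also the one with the highest Lpin1. In wild-type libraries at 5 months both were highest in replicate 1. In wild-type libraries at 2 months Lpin1 was highest in replicate 3 and Ppargc1a in replicate 1 (9.87 CPM, against 9.79 in replicate 3). In PPARγ-KO libraries at 5 months Lpin1 was highest in replicate 1 (441 CPM) and Ppargc1a in replicate 2 (17.7 CPM).

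Esrrg, an orphan receptor that PGC1 proteins coactivate, was at 2.49, 1.57 and 2.14 CPM in wild-type and 4.06, 5.18 and 6.25 CPM in PPARγ-KO libraries at 5 months (log2 1.32, edgeR adjusted p = 0.00172). At 2 months it was at 7.36, 8.75 and 6.29 CPM in wild-type and 4.55, 6.38 and 6.07 CPM in PPARγ-KO libraries. These 2-month libraries overlapped and did not pass (log2 -0.40, edgeR adjusted p = 0.291), while the difference between the effects passed (log2 1.71, SE 0.31, edgeR adjusted p = 0.0112). In wild-type livers Esrrg fell with time (log2 -1.85, edgeR adjusted p = 8.6e-05). Pprc1, the relative of the PGC1 genes, was lower in PPARγ-KO at 5 months (log2 -0.45, edgeR adjusted p = 0.0127, or 0.0629 without wild-type replicate 3) and fell with time in PPARγ-KO livers (-0.84).

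Hnf4a, the receptor through which PGC1α acts on gluconeogenesis, was at 515, 421 and 440 CPM in wild-type and 549, 584 and 572 CPM in PPARγ-KO libraries at 2 months. At 5 months it was at 548, 491 and 503 against 615, 596 and 644 CPM. The PPARγ-KO libraries were higher at both times without overlap, by 0.31 on the log2 scale at 2 months (edgeR adjusted p = 0.105, but 0.00344 without wild-type replicate 1, 0.0293 in the fit of all 12 libraries, 0.00545 with no filter and 0.043 with DESeq2) and by 0.28 at 5 months (adjusted p = 0.0151). The 5-month call was lost without wild-type replicate 2 (edgeR adjusted p = 0.093) or 3 (0.0748) or PPARγ-KO replicate 3 (0.0708).

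The metabolic genes known to respond to PGC1 cover the respiratory chain, gluconeogenesis and ketone use. Of 18 such genes 1 was higher in PPARγ-KO and 0 lower at 2 months, 5.56% called against 3.56% of all genes. It was Apoc3 (log2 0.39, edgeR adjusted p = 0.0469, or 0.0772 with the replicate block). At 5 months 1 was higher (Apoc3 again, log2 0.27, edgeR adjusted p = 0.0433, lost on leaving out most libraries) and 3 were lower, 22.2% called against 18.4% of all genes. These were G6pc, the last enzyme of gluconeogenesis (log2 -0.66, edgeR adjusted p = 6.06e-05, or 0.0619 in the fit of all 12 libraries), Ucp2 (-0.64, adjusted p = 0.000313, or 0.0621 in that fit) and Oxct1 (-0.81, adjusted p = 0.00627), which is little used in hepatocytes. With time 5 rose and 2 fell in wild-type livers (38.9% called, against 46.4% of all genes) and 11 rose and 1 fell in PPARγ-KO livers (66.7%, against 44.9%), the respiratory chain genes Cox4i1 (log2 0.72 and 0.67) and Cycs (0.72 and 0.65) in both.

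The genes that handle the receptors' ligands are those of retinoid metabolism and of fatty acid binding. At 2 months 2 of 14 tested were higher in PPARγ-KO and 0 lower (14.3% called, against 3.56% of all genes), and at 5 months 3 of 13 were higher and 0 lower (23.1%, against 18.4%). Cyp26a1, which degrades retinoic acid, was at 22.6, 21.9 and 21.7 CPM in wild-type and 39.9, 45.7 and 30.4 CPM in PPARγ-KO libraries at 2 months. All PPARγ-KO libraries were higher (log2 0.81, edgeR adjusted p = 0.0177), a call lost without wild-type replicate 2 or 3 or PPARγ-KO replicate 1. After 5 months Cyp26a1 was at 28.4, 31.8 and 33.7 against 46.8, 57.8 and 63.3 CPM, again without overlap (log2 0.85, edgeR adjusted p = 0.000426). Dhrs3, a retinal reductase, was higher at 2 months (log2 0.33, edgeR adjusted p = 0.039), and the retinal dehydrogenase Aldh1a1 (0.42, adjusted p = 0.0033) and the retinol dehydrogenase Rdh10 (0.27, adjusted p = 0.0232) at 5 months. The calls of Dhrs3 and Rdh10 were lost on leaving out most libraries in turn. With time 64.3% of this list was called in wild-type and 61.5% in PPARγ-KO livers, against 46.4% and 44.9% of all genes. In wild-type livers 8 rose and 1 fell, Dhrs3 (log2 0.66) and Rdh10 (0.53) among those that rose, and 8 rose and 0 fell in PPARγ-KO livers, Aldh1a7 (0.74) among them.

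Genes with the most alike profiles were sought by the mean absolute difference of log2(CPM + 1), each gene centred on its own mean over the 12 libraries, among 13169 genes. For Ppara they were Vegfa (0.12), Dhtkd1 (0.135) and Tef (0.136), where the profile of Ppara itself deviated from its mean by 0.614 on average. For Ppargc1b Ppara came first (0.138), then Gm16153 (0.14) and Vegfa (0.145). The group means of Vegfa were 179 and 168 CPM at 2 months and 65.3 and 83.8 CPM at 5 months in wild-type and PPARγ-KO livers. For Ppargc1a they were St3gal5 (0.133), Zfand4 (0.162) and Slc29a1 (0.165), and St3gal5 had group means of 135 and 149 CPM at 2 months and 94.7 and 192 CPM at 5 months. For Pparg they were Serpina3m (0.157), Ppp1r3b (0.163) and Gm5096 (0.167). Serpina3m and Gm5096 belong to families of near copies and are uncertain.

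For the genes that moved less, the likeness says less, since their own average deviations were small. Ppard, with an own deviation of 0.143, was nearest to Inafm1 (0.0606), Appl1 (0.0625) and C1qtnf7 (0.0719), and Rxra (own 0.126) to Oxr1 (0.0402), Eif4ebp2 (0.0426) and Inpp5f (0.0438). Rxrb (own 0.177) was nearest to Parl (0.0413), Vps29 (0.0443) and Vapa (0.0448), and Rxrg (own 0.21) to Map1lc3b (0.0641), Rxrb (0.0671) and Serinc3 (0.0701). These are descriptions over libraries that share their groups, with no test.

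**Figure D5:**
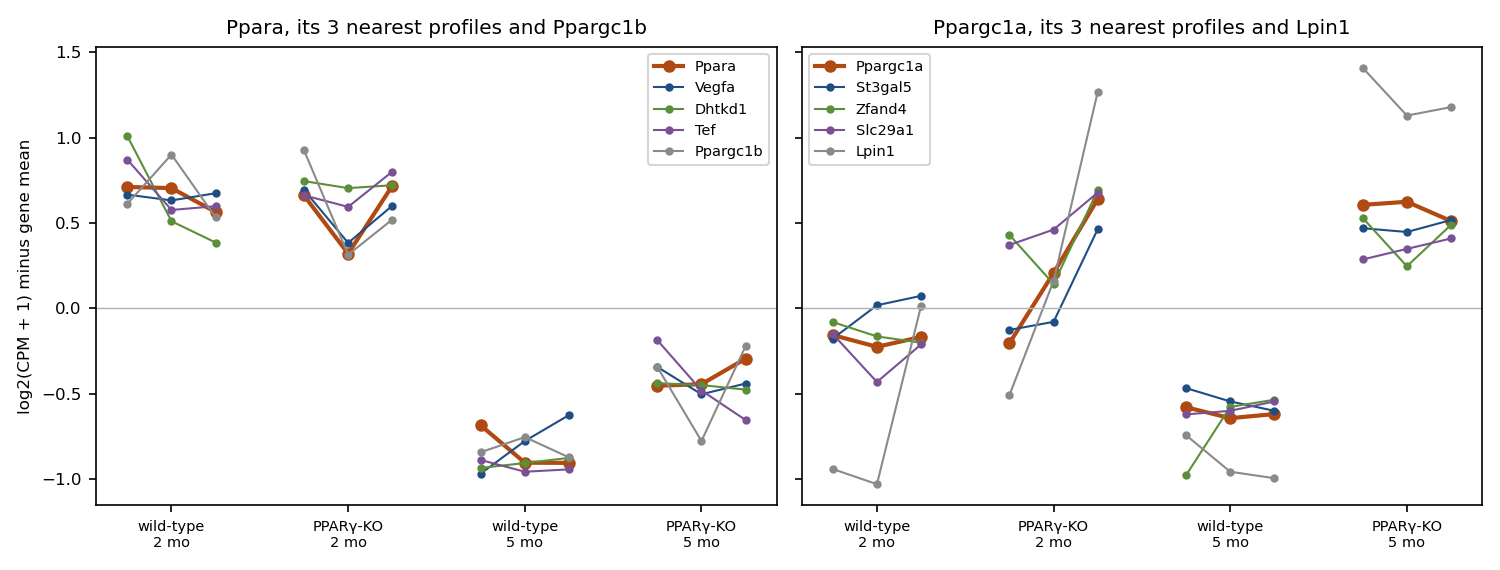
Profiles over the 12 libraries of Ppara with its 3 nearest genes and Ppargc1b (left) and of Ppargc1a with its 3 nearest genes and Lpin1 (right), as log2(CPM + 1) minus the gene's mean; lines join libraries of 1 group. The left profiles are high at 2 months and low at 5 months in both genotypes, and the right profiles are low in wild-type and high in PPARγ-KO libraries at 5 months.

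Tef, among the nearest genes of Ppara, is an output gene of the circadian clock, and Ppara and the PGC1 genes are known to cycle over the day in liver. A list of 13 clock genes was therefore counted, chosen after these values were seen. Between genotypes edgeR called 0 of 13 at 2 months (2 had an unadjusted p under 0.05), and 6 were higher in PPARγ-KO and 0 lower at 5 months, 46.2% against 18.4% of all genes: Per1 (log2 0.49), Per2 (0.79), Cry2 (0.67), Nr1d1 (0.50), Tef (0.52) and Hlf (0.59). With time 3 rose and 9 fell in each genotype, 92.3% against 46.4% and 44.9% of all genes. Arntl rose by 2.13 and 1.63 on the log2 scale in wild-type and PPARγ-KO livers, while Dbp fell by 2.10 and 1.64 and Tef by 1.63 and 1.13. These shifts stand beside the fall of Ppara and Ppargc1b over time and the higher Ppara and Ppargc1a at 5 months, and their part in them was not tested. The hour of tissue collection is not given in the labels.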

How the data were processed

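RNA-seq libraries of liver total RNA from 4 groups with 3 replicates each were analysed from the gene counts that the authors deposited, 1 file per library, as raw counts with no normalization. The paper names STAR and mm10, and the submitters' processing notes name HISAT2 and mm10. The counting program, annotation and strand setting are not given in the sources used here. Counts were tested in R 4.3.3 with edgeR 4.0.16 (filterByExpr, TMM, robust quasi-likelihood F-test, two-sided, Benjamini-Hochberg adjustment over all genes tested, threshold 0.05). Each 2-group comparison was fitted on its 6 libraries, and the difference of the genotype effects on all 12. DESeq2 1.42.0, other scalings and filters, a replicate block, a fit of all 12 libraries and each library left out were alternatives. The edgeR test was also run on counts simulated from its own fitted model, which cannot show whether that model holds for these libraries.

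The named genes were the 8 members, Hnf4a, genes annotated inside a member, up to 4 called genes of each list with the lowest adjusted p at each time (2 for changes over time), and the 3 nearest profiles of each member. The members and lists were chosen with earlier results of these data known, and the PPARγ and PPARα target counts with each library left out were added after the data were seen. Some named genes are not reported here. Replicate numbers recur in the labels of all groups. The main fits did not pair libraries by number, and the replicate block was an alternative only. At 2 months the deviations of same-numbered libraries had correlations of 0.229, 0.348 and 0.128 over the 5000 most expressed genes. For PPARγ-KO replicate 3 and wild-type replicate 1, of unlike numbers, the correlation was 0.132. At 5 months the same-numbered correlations were -0.0675, -0.0348 and -0.187. The labels do not say that each library came from a separate mouse, so the p-values measure the spread between libraries. Intervals from counts cover the counting and replicate error of these libraries only.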

Additional observations from a re-analysis of the deposited data

Results flagged for a closer look

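Of the genes described here, 5 had a genotype effect that differed between the 2 times by the test of that difference in the fit of all 12 libraries. The log2 difference for Pparg was 0.625 (edgeR adjusted p = 0.0432), higher in PPARγ-KO at both times and more so at 5 months, and this call was lost on leaving out most libraries in turn. Esrrg differed by 1.71 (edgeR adjusted p = 0.0112), with the PPARγ-KO libraries lower on average at 2 months, a difference that did not pass, and higher at 5 months. Acot3 differed by 2.25 (edgeR adjusted p = 0.0112), with the PPARγ-KO libraries below the wild-type libraries at 2 months and above them at 5 months. The clock genes Cry2 (0.627, edgeR adjusted p = 0.0357) and Hlf (0.523, adjusted p = 0.0212), chosen after their values were seen, were higher in PPARγ-KO at 5 months and close to 0 difference at 2 months (0.03 and 0.06). With 3 libraries a group, single libraries were not tested for standing apart.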

How the results depend on the processing

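At 2 months the count of genes called in PPARγ-KO against wild-type livers was 519. It was 1608 at an unadjusted p below 0.05 with a 1.3-fold change, 988 with DESeq2, 1562 with no filter, 1153 in the fit of all 12 libraries and 117 to 1577 on leaving out 1 library. With the replicate number as a block, which pairs the libraries at 2 months, 817 genes were called. The block ended the 2-month call of Apoc3 among the named genes. Of the 8 members, 2 were called at 2 months at the unadjusted threshold and with no filter, 0 with scaling by library size alone, and 0 to 2 on leaving out 1 library. At 5 months 1593 to 3078 genes were called on leaving out 1 library. Over time 3 to 5 members were called in wild-type and 4 to 8 in PPARγ-KO livers on leaving out 1 library. For the difference of the genotype effects the counts were 1563 genes and 4 members at the unadjusted threshold, 594 genes and 3 members with DESeq2, 793 genes and 3 members with no filter, and 83 to 567 genes and 0 to 1 members on leaving out 1 library.

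The direction reversed only for small changes that had not passed. With library size alone the 2-month log2 fold changes of Rxrb and Rxrg were -0.000233 and -0.0408. On leaving out 1 library the 2-month values ran from -0.158 to 0.028 for Ppara, from -0.117 to 0.133 for Rxrg and from -0.294 to 0.0442 for Ppargc1b. The 5-month value of Rxrb ran from -0.066 to 0.0195 and the change of Pparg over time in wild-type livers from -0.08 to 0.00666. The difference of effects ran from -0.17 to 0.00844 for Rxra, from -0.0247 to 0.23 for Rxrg and from -0.13 to 0.0163 for Hnf4a. The cause was not tested. Of 600 member values under an alternative, 530 kept direction and side of the threshold. Library size alone moved the split of genes called to 171 higher of 520 at 2 months (259 of 519 with TMM), 889 of 2783 at 5 months (1258 of 2602), 2745 of 6617 over time in wild-type livers and 2741 of 6466 in PPARγ-KO livers.

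Among the list genes, the calls of Apoc3, Dhrs3, Rara, Cited2 and Rdh10 were lost under 5 or more alternatives, and those of Acaa1a at 2 months and Nr4a1 over time in PPARγ-KO livers on leaving out certain libraries. Low counts limit genes such as Ppargc1b (48 to 94 a library at 5 months), Nr4a2 (9 to 46) and Esrrg (27 to 101).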
